A study of Mus musculus with 18 samples.

Results

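The 38 genes described here encode proteins of the lysosome: 8 cathepsins, 2 other lysosomal peptidases, 9 glycosidases, 4 sulfatases, 7 lipid-handling proteins and 6 membrane proteins, together with the transcription factors Tfeb and Tfe3. They were taken by symbol from a list of lysosomal genes drawn up with earlier results of these data known. The rule uses measured values only to choose the most abundant transcript of each gene. All 38 were found among the 26165 genes of the bone marrow table and the 26149 genes of the skin table. RNA sequencing compared mice that carry the T166A form of the nuclear receptor PPARg, named for a threonine changed to alanine, with wild-type (WT) mice. Bone marrow-derived macrophages (BMDM) came from the leg bones of C57BL/6J mice, the source of the WT cells, or of PPARg T166A mice, and were differentiated for 7 days in 50 ng/ml M-CSF, the growth factor that drives macrophage formation. There were 3 libraries of each genotype, of which replicates 1 and 2 carry the batch label B1 and replicate 3 the batch label B2, and flow cytometry found that 95 to 99% of the cells in such cultures carried F4/80 and CD11b. Skin cells were collected from digested dorsal skin of WT or PPARg T166A mice on day 6 after skin injury, by binding to anti-F4/80 beads, with 6 libraries of each genotype and no batch label. No label names a further treatment, and no strain is stated for the skin mice. No label restricts the mutation to macrophages. The labels do not say whether replicates came from separate animals, so p-values measure the spread between these libraries, which may be technical.

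Lysosomes are acidic compartments in which proteins, glycans, glycosaminoglycans and lipids delivered by phagocytosis, endocytosis and autophagy are broken down. Macrophages depend on them to digest dead cells and debris, as in a healing wound. Many lysosomal genes carry in their promoters an E-box of the CLEAR type, with the core letters CACGTG, which is bound by TFEB, TFE3 and their relatives when these factors enter the nucleus. Folliculin and the Rag GTPases hold the factors in the cytoplasm together with the mTORC1 kinase complex.

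Promoter letters are shown because this motif is known from lysosomal genes and many members were lower together in skin. RefSeq promoter windows (250 bases before to 50 bases after an annotated start, build GRCm38.p6) were matched for 34 of the 38 genes, in 40 windows. CACGTG, which reads the same on both strands, was present in 12 of the 40 member windows (30.0%), compared with 7.15% of all 32851 windows and 9.53% of the 15154 windows of genes tested in skin. The longer form TCACGTG, searched on both strands and always overlapping a CACGTG, was present in 27.5% of member windows and 3.77% of all windows. Windows with CACGTG made up 8 of 27 (29.6%) among members that were lower in T166A skin and 4 of 13 (30.8%) among the other members. Those shares are similar. Windows with 2 or more copies made up 12.5% of member windows, 6.82% for the other pathway genes and 0.937% for genes tested in skin. The member windows of this kind were 5 of 27 (18.5%) among lower members and 0 of 13 among the others, too few to compare these groups. The 4 genes without a window (Ctsb, Ctsh, Asah1 and Npc1) were all lower in T166A skin, so the group of lower members is incomplete. Differences between the groups were not tested. These counts describe letters and not sites of binding. Lamp1 held 4 copies, the most of any member. The 250 bases before the start of Lamp1 (chr8:13158911-13159160, plus strand) and of Gla (chrX:134601006-134601255, minus strand), with each CACGTG in capitals, read 5′ to 3′ as follows.
Lamp1: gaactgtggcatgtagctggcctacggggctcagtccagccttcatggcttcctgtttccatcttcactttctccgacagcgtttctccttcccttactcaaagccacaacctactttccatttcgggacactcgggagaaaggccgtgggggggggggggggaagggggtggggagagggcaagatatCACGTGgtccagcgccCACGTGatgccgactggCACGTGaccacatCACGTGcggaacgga
Gla: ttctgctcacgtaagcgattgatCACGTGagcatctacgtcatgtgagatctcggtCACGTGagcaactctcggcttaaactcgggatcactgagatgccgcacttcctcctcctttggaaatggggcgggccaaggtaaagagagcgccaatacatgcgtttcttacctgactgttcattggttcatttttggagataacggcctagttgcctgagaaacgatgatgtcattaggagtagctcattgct
Stretches of 30 bases around a CACGTG follow for 3 genes that were lower in T166A skin (Mcoln1, Ctsd and Sgsh) and for 2 that were not called (Naglu and Arsa).
Mcoln1: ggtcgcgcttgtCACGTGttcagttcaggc
Ctsd: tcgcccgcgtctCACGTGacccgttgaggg
Sgsh: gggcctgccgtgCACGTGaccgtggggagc
Naglu: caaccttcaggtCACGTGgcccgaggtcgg
Arsa: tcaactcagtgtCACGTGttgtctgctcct
The stretch of Mcoln1 is chr8:3500436-3500465 (plus strand), with the first capital 71 bases before the start. That of Ctsd is chr7:142387908-142387937 (minus strand, 98 bases before the start) and that of Sgsh chr11:119355522-119355551 (minus strand, 29 bases). That of Naglu is chr11:101070009-101070038 (plus strand, 73 bases) and that of Arsa chr15:89477423-89477452 (minus strand, 16 bases). The windows of Neu1, Cd68, Tpp1 and Tfeb did not contain these letters.

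BMDM libraries held 40072513 to 44152639 counts each and skin libraries 29357354 to 38774475, and no 2 of them were identical. Levels are given as normalized CPM, the count of a gene divided by its library total and brought to a common scale, after TMM factors that even out composition between libraries. For 13 of the 38 genes, exons overlap those of another annotated gene, mostly on the opposite strand, and the strand setting of the counting is not known, so reads of both genes may be mixed. The overlap is longest for Arsb (1948 of 4038 exon bases), Ctsl (1742 of 6168, with an antisense RNA) and Sgsh (955 of 4357). In BMDM, 7 of 12 adipocyte and 5 of 8 keratinocyte markers were at 0 in every library, but T166A replicate 3 stood apart with a summed level of 412 CPM over 9 fibroblast markers, against 5.00 to 45.5 CPM in the other 5 libraries. The skin fractions held macrophage markers at 9757 to 14291 CPM in sum and also fibroblast markers at 6357 to 11589 CPM and keratinocyte markers at 130 to 303 CPM, so transcripts of other skin cells were present.

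In WT libraries of both sources several cathepsins and the saposin precursor Psap were the most abundant members per length of transcript. Other proteases ranked lower, such as Ctsh (rank 15 of 38 in both sources) and Tpp1 (rank 21 in both). In WT BMDM the highest levels per kilobase were those of Ctsd (7245 CPM per kb), the main aspartic protease of the lysosome, Psap (6039), Ctss (5955) and Ctsb (3394). In WT skin fractions they were those of Psap (2455 CPM per kb), Ctsb (1832), Ctsd (1452) and Ctsl (1267). The lowest levels were those of the sulfatases Arsb in BMDM (7.87 CPM per kb) and Sgsh in skin (3.57 CPM per kb). Of the counts of kept transcripts, the 38 genes together took 8.09 ± 0.27% (SD, n = 3) in a WT BMDM library and 7.99 ± 0.37% (n = 3) in a T166A one. In skin they took 3.46 ± 0.19% (n = 6) in WT and 3.16 ± 0.11% (n = 6) in T166A.

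**Figure D1:**
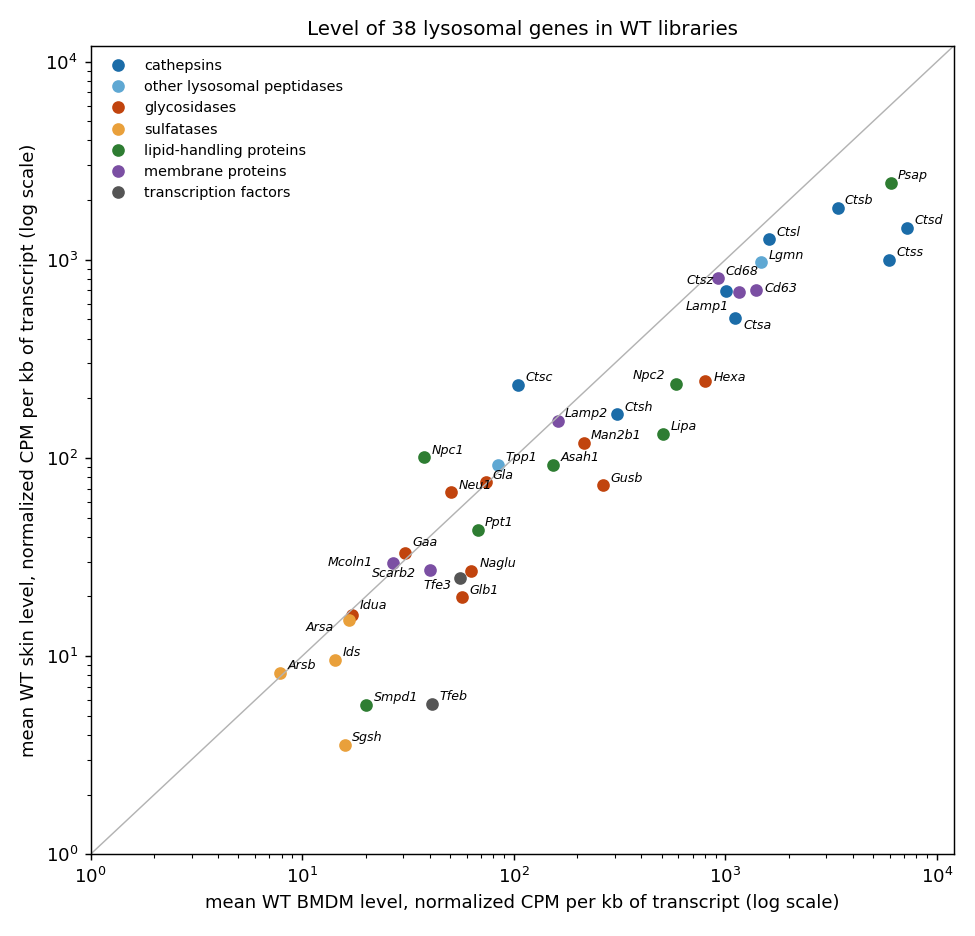
Mean level of each of the 38 genes in WT BMDM (x axis) and in WT skin fractions (y axis), in normalized CPM per kilobase of transcript on log axes, coloured by role, with the line of equal values. Psap, Ctsd, Ctss and Ctsb sit at the upper right, whereas Npc1 and Ctsc lie farthest above the line; the tables were normalized separately, so the distance from the line carries no test.

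In skin wound fractions, 26 of the 38 genes were lower in T166A than in WT, and 0 were higher (edgeR quasi-likelihood test, adjusted p under 0.05 over all genes tested). Lower calls made up 13.2% of the 15473 genes tested and higher calls 12.7%, or 18.8% and 15.3% of those with a mean of at least 10 CPM. At an unadjusted p under 0.05 there were 29 of 38, against 36.9% of all genes in either direction. The median log2 fold change (T166A over WT) was -0.21 for the members and 0.01 for all genes, and 37 members were below 0, all but Arsb. Lower calls were common in 5 of the 6 protein classes: 7 of 8 cathepsins, 2 of 2 other peptidases, 6 of 9 glycosidases, 4 of 7 lipid-handling proteins and 5 of 6 membrane proteins were lower, against 1 of 4 sulfatases. Sizes were modest, from -0.14 for Lamp2 to -0.44 for Tfeb among the genes called. TMM factors were lower in WT skin libraries (0.946 to 1.001) than in T166A ones (1.016 to 1.048), and with library totals alone 15 of the 26 calls were kept, Arsb was called higher, 31 members were below 0 and the member median was -0.12. Over all genes that scaling gave 3357 higher and 1308 lower calls, in place of 1963 and 2048.

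**Figure D2:**
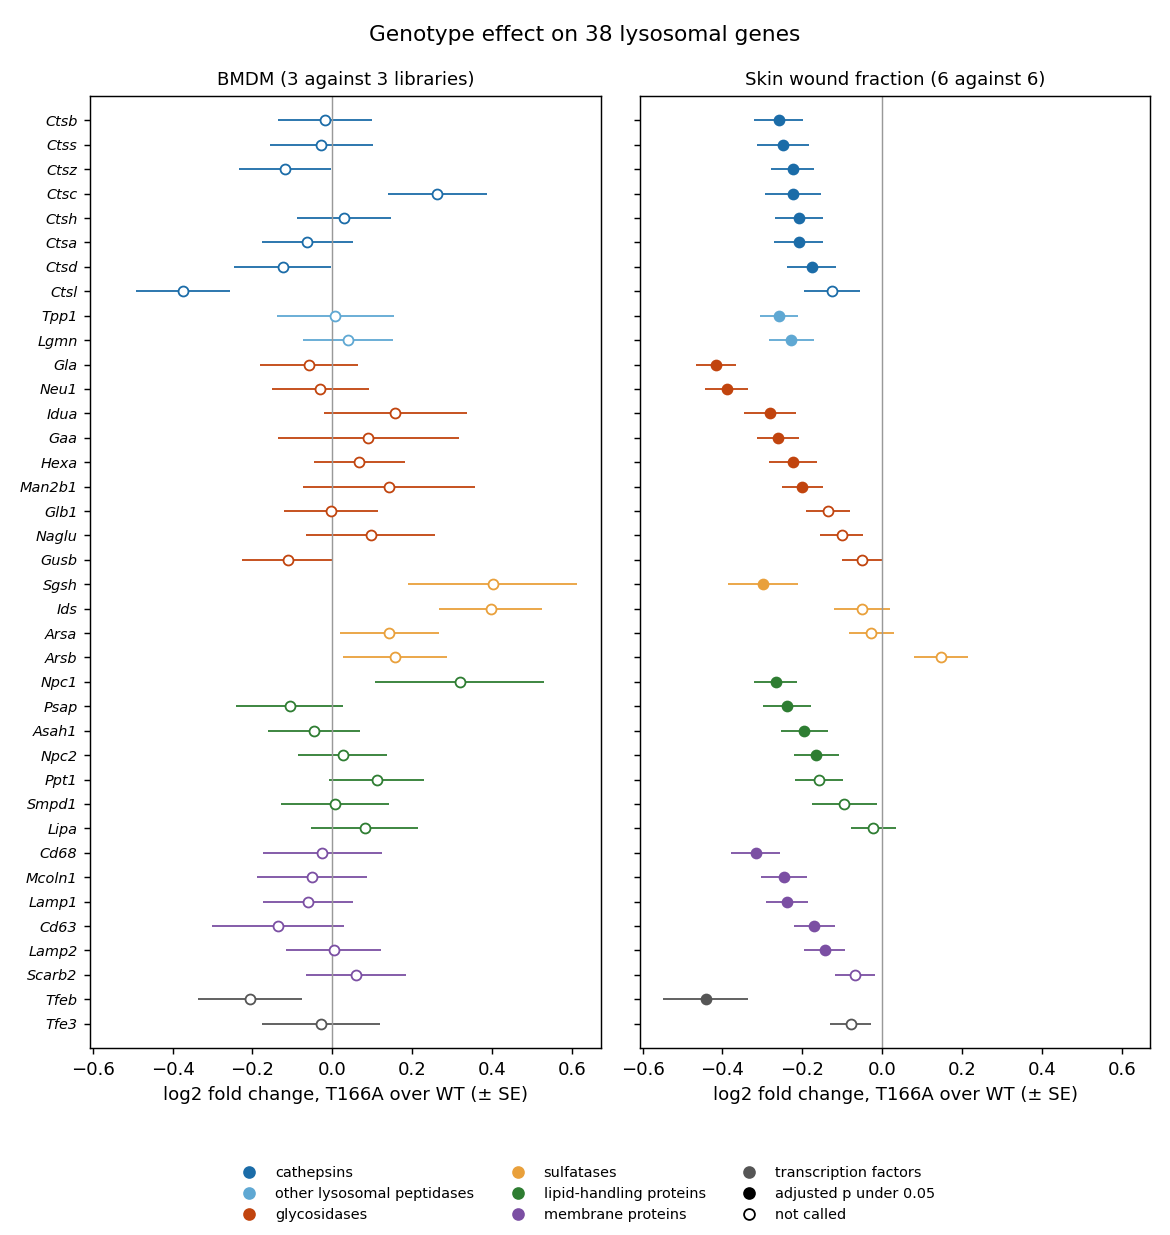
Log2 fold change of T166A over WT (x axis, bars ± SE) for each of the 38 genes in BMDM (left, 3 against 3 libraries) and skin fractions (right, 6 against 6), coloured by role, with filled points for an adjusted p under 0.05. In skin 26 points are filled and all lie left of 0, and in BMDM no point is filled; with library totals alone in place of TMM, Gusb, Ids, Arsa, Lipa, Scarb2 and Tfe3 lie above 0 in skin, and Ctsb, Ctss, Neu1, Glb1, Cd68 and Tfe3 lie above 0 in BMDM.

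Macrophage markers moved in the same direction as the members in the same skin libraries. Of 10 macrophage markers, 8 were lower in T166A, with a median of -0.32, and their summed level was 11323 to 14291 CPM in WT and 9757 to 10963.5 CPM in T166A libraries, without overlap (Cd68 is in both lists). Lyz2, the macrophage lysozyme and the most abundant of them, went from 5420.0 ± 480.1 to 4279 ± 163 CPM (SD, n = 6 each; -0.34, SE 0.06, adjusted p = 1.75e-04). Of 11 adipocyte markers tested, 9 were higher in T166A, among them Adipoq (0.916 ± 0.375 to 9.91 ± 2.29 CPM), whereas the most abundant, Fabp4, which macrophages also make, was at 514 ± 73.4 and 517 ± 75.1 CPM. Of 9 fibroblast markers 0 were called (edgeR, none had an adjusted p under 0.05), although all 9 were below 0, with a median of -0.10. With library totals alone 7 of the 9 were below 0, with a median of -0.02. Of 8 keratinocyte markers 1 was lower, of 6 neutrophil markers 3 were lower and of 8 osteoclast markers 1 was higher. In a bulk fraction, fewer macrophages and less RNA of a gene per macrophage cannot be told apart. The sum of 37 members (without Cd68) divided by the sum of the other 9 macrophage markers was 2.83 to 2.95 in WT and 3.02 to 3.32 in T166A skin libraries. The ratio was higher in every T166A library than in any WT library. Without Lyz2 in the divisor the ratio was 5.15 to 5.27 in WT and 5.40 to 5.88 in T166A. This ratio was chosen after the values were seen and is given as a description.

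Among the cathepsins, 7 of 8 were lower in T166A skin. Ctsb, a cysteine protease and the most abundant cathepsin there, ranged from 7509 to 9627 CPM in WT (median 8726) and from 6689 to 7497 CPM in T166A (median 7344). Every T166A library lay below every WT library, and the log2 fold change was -0.26 (SE 0.06, edgeR adjusted p = 0.00319), or 16.5% lower. Ctsz, a carboxypeptidase of the same protease family, ranged from 922 to 1060.3 CPM (median 1031) in WT and from 791 to 929 CPM (median 843) in T166A, with a small overlap (-0.22, SE 0.05, adjusted p = 0.00321). Ctss, an elastin-degrading protease that also trims the invariant chain of MHC class II, went from 1358 ± 142 to 1143 ± 76.7 CPM (SD, n = 6 each; -0.25). Ctsc, an activator of serine proteases, and the aminopeptidase Ctsh changed by -0.22 and -0.21. Ctsa, the carboxypeptidase that protects Neu1 and Glb1 in a complex, changed by -0.21, and the aspartic protease Ctsd by -0.18. Ctsl, another cysteine protease, ranged from 2160.2 to 2719.5 CPM in WT and from 1933 to 2721 CPM in T166A, so its groups overlapped (-0.13, adjusted p = 0.203). The highest T166A value was that of replicate 3, and without that library Ctsl was lower too (-0.18, adjusted p = 0.0407). By library totals alone 3 of the 8 were lower. Leaving out WT replicate 1, 4 or 6 ended the calls of both Ctsc and Ctsd, as did T166A replicate 3 or 5 for Ctsc (adjusted p up to 0.063) and T166A replicate 2 or 4 for Ctsd (up to 0.0885).

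Both other peptidases were lower. Tpp1, which removes tripeptides from protein ends, ranged from 309 to 349.8 CPM in WT (median 327) and from 265 to 284 CPM in T166A (median 276), without overlap (-0.26, SE 0.05, edgeR adjusted p = 2.22e-04). Lgmn, the asparaginyl endopeptidase that also processes cathepsins, ranged from 1729 to 2091 CPM in WT (median 1949.8) and from 1538 to 1740.5 CPM in T166A (median 1659), with 1 pair of neighbouring values overlapping between the groups (-0.23, SE 0.06, adjusted p = 0.00393). Both were also lower with library totals alone.

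The glycosidases held the largest falls among the enzymes. Gla, the alpha-galactosidase that degrades globotriaosylceramide, ranged from 225 to 250.4 CPM in WT (median 241) and from 165 to 190.0 CPM in T166A (median 180.2). Its groups were well apart, and the change was -0.42 (SE 0.05, edgeR adjusted p = 1.73e-06), or 25.0% lower. Neu1, the lysosomal sialidase, ranged from 157 to 174 CPM in WT (median 165) and from 111 to 141 CPM in T166A (median 129), again without overlap (-0.39, SE 0.05, adjusted p = 1.25e-05). Idua, which removes iduronic acid from heparan and dermatan sulfate, and Gaa, the acid glucosidase that degrades glycogen, were lower in every T166A library than in any WT library, with changes of -0.28 and -0.26. Hexa, the alpha subunit of beta-hexosaminidase, went from 488 ± 47.2 to 418 ± 23.6 CPM (SD, n = 6 each; -0.22), and the mannosidase Man2b1 from 457 ± 24.8 to 398 ± 20.9 CPM (-0.20). The remaining 3 did not pass the test: the galactosidase Glb1 was at -0.14 (adjusted p = 0.0715, but 0.0443 with DESeq2 and 0.0478 without WT replicate 5), the heparan sulfate enzyme Naglu at -0.10 and the glucuronidase Gusb at -0.05. Scaled by library totals alone, 4 of the 9 were lower, namely Gla, Neu1, Idua and Gaa, and Gusb was at 0.04.

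Sulfatases were the exception. Sgsh, which removes sulfate from heparan sulfate, ranged from 14.4 to 16.6 CPM in WT (median 15.4) and from 10.8 to 14.7 CPM in T166A (median 12.4), with overlap at the edge (-0.30, SE 0.09, edgeR adjusted p = 0.0141). Arsb, which acts on dermatan and chondroitin sulfate, ranged from 29.9 to 37.0 CPM in WT (median 32.9) and from 34.0 to 40.5 CPM in T166A (median 36.6). Its groups overlapped, and its change of 0.15 (SE 0.07) did not pass the test (adjusted p = 0.118). Ids, the iduronate sulfatase, went from 47.6 ± 3.56 to 46.0 ± 4.74 CPM, and Arsa, which degrades sulfatide, from 53.1 ± 1.48 to 52.1 ± 3.84 CPM (SD, n = 6 each). By library totals alone 0 of the 4 were lower (edgeR; Sgsh had an adjusted p of 0.0691), Arsb was higher (0.24, adjusted p = 0.0124), Ids and Arsa were at 0.04 and 0.06, and the median of the 4 turned from -0.04 to 0.05.

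The lipid-handling proteins were divided. Npc1, the membrane protein that exports cholesterol from lysosomes, ranged from 493 to 542 CPM in WT (median 536) and from 381 to 463 CPM in T166A (median 454), without overlap (-0.27, SE 0.05, edgeR adjusted p = 6.70e-04). Psap, from which the saposin cofactors of sphingolipid breakdown are cut, ranged from 5873 to 7207 CPM in WT (median 6536) and from 5069 to 5954 CPM in T166A (median 5491), with a slight overlap (-0.24, SE 0.06, adjusted p = 0.00499). Asah1, the acid ceramidase, and Npc2, the soluble partner of Npc1 in cholesterol export, were lower by smaller amounts (-0.19 and -0.16). Asah1 lost its call when WT replicate 6 was left out (adjusted p = 0.0536). Npc2 lost it in 7 of the 12 such fits, those leaving out WT replicate 1, 4 or 6 or T166A replicate 2, 3, 5 or 6 (adjusted p up to 0.0937). Ppt1, which removes palmitate from proteins, was just outside the threshold (-0.16, adjusted p = 0.0527) and passed it in 8 of 20 alternative fits. These were RLE size factors (0.0456), a stricter filter (0.0481), DESeq2 (0.0466), a block for the replicate number (0.0272) and removal of length trends (0.0364). The others left out WT replicate 2 (0.00985), T166A replicate 1 (0.0339) or T166A replicate 4 (0.0467). Lipa, the acid lipase that frees cholesterol from its esters, was at 392 ± 33.0 and 386 ± 19.8 CPM, and the sphingomyelinase Smpd1 at 13.7 ± 1.15 and 12.8 ± 0.78 CPM (SD, n = 6 each). Library totals alone left 2 of the 7 lower, and Lipa was at 0.07.

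Of the membrane proteins, 5 of 6 were lower. Cd68, a heavily glycosylated protein of macrophage late endosomes and itself a macrophage marker, ranged from 862 to 1096 CPM in WT (median 1013) and from 712 to 838 CPM in T166A (median 817), without overlap (-0.32, SE 0.06, edgeR adjusted p = 4.63e-04). Lamp1, a main component of the lysosomal membrane, ranged from 1369 to 1637 CPM in WT (median 1549) and from 1239 to 1363 CPM in T166A (median 1296), also without overlap (-0.24, SE 0.05, adjusted p = 0.00166). Mcoln1, the calcium channel through which lysosomes signal to TFEB, changed by -0.25, the tetraspanin Cd63 by -0.17 and Lamp2 by -0.14. The call of Lamp2 was lost in 9 of the 12 fits that left out a library, all but those without WT replicate 2, T166A replicate 3 or T166A replicate 4 (adjusted p up to 0.104). Scarb2, the carrier of glucocerebrosidase, was at 127 ± 8.82 and 121 ± 2.04 CPM (-0.07, adjusted p = 0.347). Library totals alone left 3 of the 6 lower.

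The pair of transcription factors behaved differently in level and change. Tfeb ranged from 12.01 to 15.5 CPM in WT (median 13.2) and from 7.63 to 12.4 CPM in T166A (median 10.1). Only the highest T166A value reached into the WT range, and the change of -0.44 (SE 0.11, edgeR adjusted p = 0.00324) was the largest of the 38. Tfe3 ranged from 78.7 to 88.8 CPM in WT (median 84.2) and from 75.4 to 85.3 CPM in T166A (median 78.2), with wide overlap (-0.08, SE 0.05, adjusted p = 0.289). These are RNA levels, and both factors are known to be controlled mainly by their location in the cell, which RNA sequencing does not measure.

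**Figure D3:**
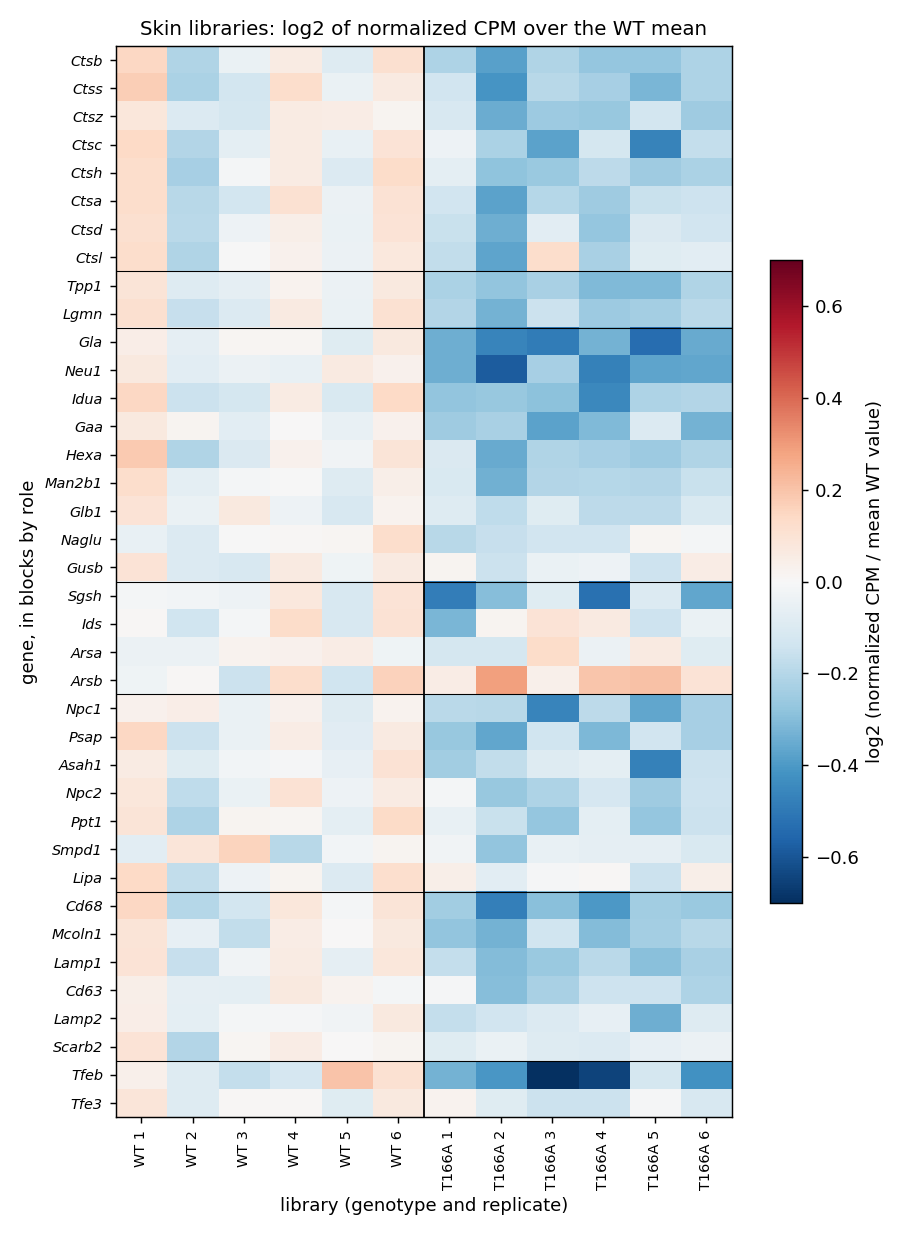
Log2 of normalized CPM over the WT mean for each of the 38 genes (rows, in blocks by role) in the 12 skin libraries (columns, 6 WT and 6 T166A). Blue cells fill most of the T166A columns, strongest for Gla, Neu1 and Tfeb, while the Arsb row is the reverse; among WT libraries, replicate 2 is the lowest in 25 of the 38 rows.

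Every T166A skin library was below every WT skin library for 10 of the 38 genes (Ctsb, Tpp1, Gla, Neu1, Gaa, Idua, Man2b1, Npc1, Lamp1 and Cd68), and for 0 in the other direction. Of all genes tested, 6.63% were fully separated downwards and 5.43% upwards. Of the 26 calls, 21 were kept in every fit that left out 1 library, and the exceptions were Asah1, Ctsc, Ctsd, Lamp2 and Npc2. The count of lower members ranged from 21 (without WT replicate 6) to 27 (without WT replicate 2).

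Summed over each class, cathepsins, glycosidases and lipid-handling proteins were all lower on average in T166A skin. The mean cathepsin sum was 14.1% lower (WT libraries 16345 to 20606 CPM, T166A libraries 14583 to 16967.5 CPM), with overlap between genotypes. The mean glycosidase sum was 14.9% lower (1711 to 1989 CPM against 1458 to 1650.2 CPM) and the mean lipid-handling sum 14.2% lower (7796 to 9390.3 CPM against 6881 to 7701 CPM), both without overlap. The mean sulfatase sum was 1.32% lower. By library totals alone these sums were lower by 8.70%, 9.57% and 8.78%, in that order, glycosidases alone did not overlap, and the sulfatase sum was higher in T166A. Single genes weigh heavily in them: Ctsb made up 46.3% of the WT cathepsin sum and Psap 75.9% of the WT lipid-handling sum, and without these the sums were 12.1% and 10.8% lower. The medians over members, in which each gene counts once, were -0.22 for cathepsins, -0.22 for glycosidases and -0.16 for lipid-handling proteins. Cathepsins made up 52.5 ± 0.557% of the member sum in WT and 52.6 ± 0.529% in T166A skin (SD, n = 6 each). Differences between classes were not tested.

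**Figure D4:**
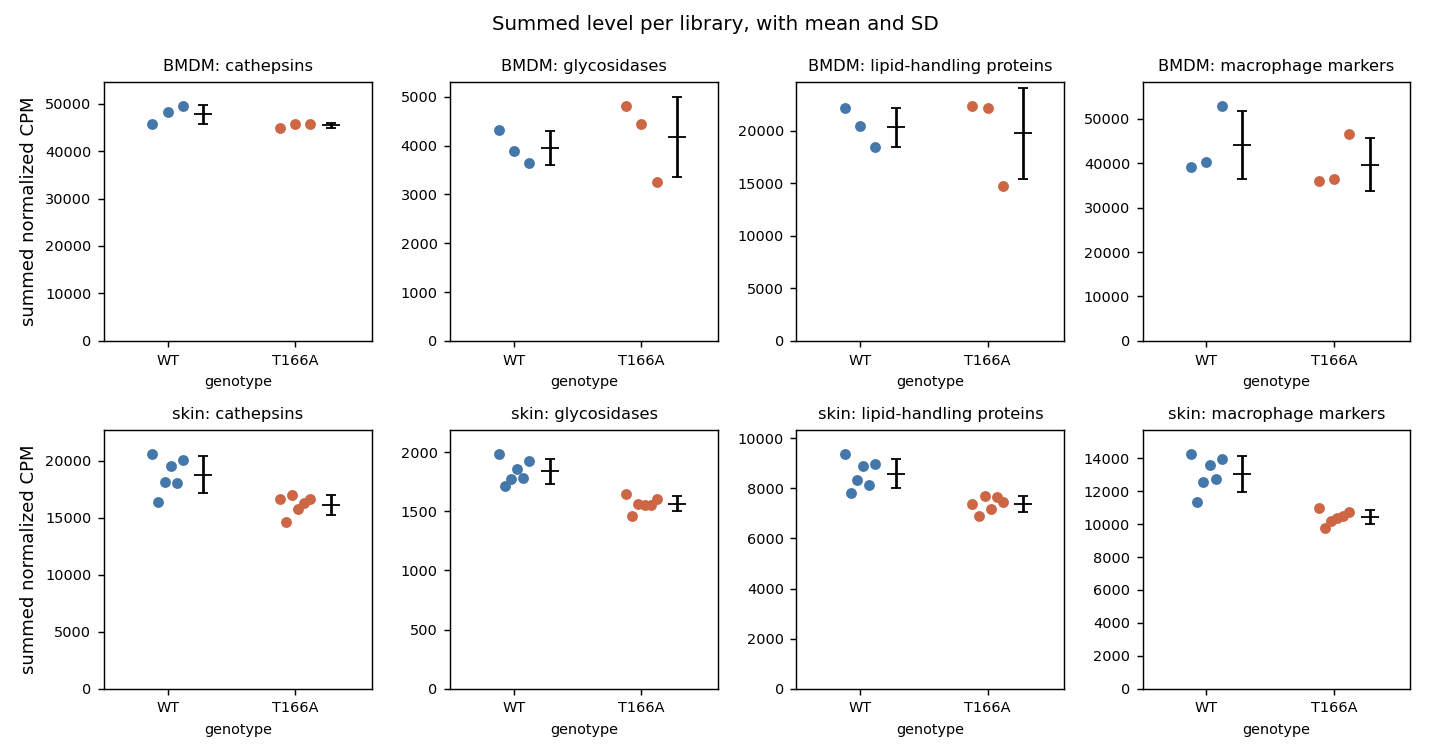
Summed normalized CPM (y axis, from 0) of the cathepsins, glycosidases, lipid-handling proteins and macrophage markers in each BMDM library (top row) and skin library (bottom row), by genotype, with mean and SD beside the points. In skin the T166A points lie lower in all 4 panels, without overlap except for the cathepsins (by library totals alone also for the lipid-handling proteins), and in BMDM the lowest glycosidase and lipid-handling sums are those of T166A replicate 3.

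In BMDM, grown without a wound environment, 0 of the 38 genes passed the test (edgeR adjusted p under 0.05), and 2 had an unadjusted p under 0.05. DESeq2 called 1, Ctsl. Calls were rare in this comparison, at 0.0685% of the 13139 genes tested (0.0609% higher and 0.00761% lower), and 12.8% had an unadjusted p under 0.05. The median log2 fold change of the members was 0.0046 and that of all genes -0.02. Standard errors of the members ranged from 0.11 to 0.23 in log2, wider than the 0.05 to 0.11 in skin, and a change of 0.21, the size of the skin median, is less than 2 of these standard errors. The summed level of the members was 81531, 81832 and 82043 CPM in the WT libraries and 81786, 81894 and 73484 CPM in the T166A libraries, the last being replicate 3, which also held the fibroblast markers.

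Ctsl and Ids had the smallest p-values in BMDM. Ctsl was at 2854, 2977 and 3688 CPM in WT replicates 1 to 3 and at 2049, 2282 and 3072 CPM in T166A replicates 1 to 3. Within each batch the T166A libraries were lower, although the T166A library of batch B2 exceeded both WT libraries of batch B1 (-0.37, SE 0.12, edgeR adjusted p = 0.264, DESeq2 adjusted p = 0.0419). Ids was at 75.2, 69.1 and 68.9 CPM in WT and at 102, 103 and 78.5 CPM in T166A. All 3 T166A libraries were above all 3 WT libraries, as for 6.67% of all genes (0.40, SE 0.13, adjusted p = 0.282). Without T166A replicate 3 the change of Ctsl was -0.43 (adjusted p = 0.191) and that of Ids 0.50 (adjusted p = 0.159). Ctsz was the 1 member with all T166A libraries below all WT libraries (1392, 1420.2 and 1209 against 1442, 1475 and 1436 CPM), as for 6.97% of all genes, with a change of -0.12 (adjusted p = 0.695).

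The batches disagreed for most members in BMDM. In batch B1 (2 against 2 libraries) 27 of the 38 genes had a higher mean in T166A, and in batch B2 (1 against 1, with no test) 28 had a lower value. Of all 13139 genes tested, 6483 were higher in batch B1 and 7396 were lower in batch B2. The direction was opposite for 25 of 38 genes (65.8%), compared with 47.6% of all genes tested. Gaa was at 135, 99.3 and 73.3 CPM in WT and at 171, 147 and 47.5 CPM in T166A, so that the log2 ratio was 0.44 in batch B1 and -0.62 in batch B2. Man2b1 was at 1082, 767 and 603 CPM in WT and at 1401, 1091 and 444 CPM in T166A, with ratios of 0.43 and -0.44. The cholesterol exporter Npc1 was at 264, 177 and 149.7 CPM in WT and at 365, 294 and 129 CPM in T166A (0.58 and -0.21), and Sgsh at 85.7, 59.5 and 63.1 CPM and at 127, 106 and 56.2 CPM (0.68 and -0.17). In these 4 genes the T166A library of batch B2 was the lowest of all 6 and the T166A library 1 of batch B1 the highest. That B2 library is the one with fibroblast markers, and the part of those cells in these values was not tested. In batch B1 alone 0 of the 38 passed the test and 5 had an unadjusted p under 0.05. Of all 13238 genes tested in that fit, 21 passed and 2343 had an unadjusted p under 0.05.

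The genes chosen for their skin values did not pass the test in BMDM. Ctsb was at 16957, 15568 and 15770.5 CPM in WT and at 17438, 16053 and 14312 CPM in T166A (-0.02, or 0.04 without T166A replicate 3). Gla was at 209, 239 and 252 CPM in WT and at 207, 233 and 231 CPM in T166A (-0.06), and Neu1 at 129, 121 and 124 CPM and at 134, 126 and 108 CPM (-0.03, or 0.05 without that library). For Gla, Neu1 and Ctsb the ranges of the genotypes overlapped. Psap lay outside the WT range only in T166A replicate 3, being at 17727, 16216 and 14193 CPM in WT and at 17647, 17469 and 10608 CPM in T166A (-0.11, or 0.05 without it). Tpp1 (346, 288 and 269 against 373, 341 and 215 CPM) and Cd68 (1381, 1106 and 937 against 1459.9, 1216 and 769 CPM) were likewise lowest in T166A replicate 3, and both were highest in T166A replicate 1, above every WT library. Lgmn was at 2845, 2626 and 3362 against 2784, 2738 and 3581 CPM, and Lamp1 at 2673, 2559.7 and 2559.9 against 2653, 2528 and 2302 CPM. The ranges overlapped for Lgmn, and for Lamp1 T166A replicate 3 was the lowest. Arsb was at 34.1, 32.2 and 29.0 against 36.3, 39.8 and 30.5 CPM (0.16, SE 0.13). Tfeb was at 89.5, 108 and 91.6 against 88.8, 89.8 and 72.9 CPM (-0.21, SE 0.13, adjusted p = 0.53), and Tfe3 at 193, 163 and 173 against 210.2, 176 and 138 CPM (-0.03).

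The difference between the genotype effects, skin minus BMDM, was tested over all 18 libraries, with the same spread per gene assumed for both sources. Fitted alone, the common coefficient of variation (spread relative to the mean) was 0.28 in BMDM and 0.13 in skin, against 0.18 in the joint fit. The joint fit may therefore understate the spread of BMDM libraries, and its p-values may be too small. The difference was negative and past the threshold for 6 of the 38 genes, with 0 positive. Negative calls made up 8.16% of the 16586 genes tested and positive calls 6.1%. The members' median was -0.16 and that of all genes 0.03. The 10 macrophage markers were all negative in the same test (9 of 10 by library totals alone), with a median of -0.37 and 3 called, so they differed between the sources in the same direction as the members; their part in the members' values was not tested. The 6 were Sgsh (-0.66, SE 0.19, edgeR adjusted p = 0.0248), Ctsc (-0.45, SE 0.13, 0.0291), Gla (-0.32, SE 0.10, 0.0338), Ids (-0.41, SE 0.13, 0.0344), Npc1 (-0.55, SE 0.17, 0.036) and Neu1 (-0.32, SE 0.10, 0.0444). For Gla and Neu1 the BMDM changes were near 0 (-0.06 and -0.03) and the skin changes were -0.42 and -0.39. For Ids the BMDM change was 0.40 and the skin change -0.05. For Sgsh, Ctsc and Npc1 the separate changes were of opposite sign (0.40, 0.26 and 0.32 in BMDM, -0.30, -0.22 and -0.27 in skin). Ctsl lay the other way (0.29, adjusted p = 0.146). The count of 6 was set by a few libraries: it was 1 without BMDM WT replicate 2, T166A replicate 1 or T166A replicate 2, and 11 without BMDM WT replicate 3 or T166A replicate 3. It was 3 without skin WT replicate 1 or 4 or T166A replicate 5, and 2 without skin WT replicate 6, and 0 of the 6 kept their call in all 18 such fits. Without BMDM T166A replicate 3, the library with fibroblast markers, Gaa (-0.63, adjusted p = 0.0036), Man2b1 (-0.56), Tpp1 (-0.36), Idua (-0.50) and Naglu (-0.35) passed as well. Over all genes, 1011 calls were positive and 1354 negative, and with RLE size factors 766 and 1626.

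Other genes of the lysosomal pathway, from lists that hold none of the 38, were lower in T166A skin as well. Of 90 tested, 38 were lower and 3 higher, with a median of -0.14, where 13.2% of all genes were lower and 12.7% higher. With library totals alone 22 of the 90 were lower and 6 higher, with a median of -0.05, where 8.45% of all genes were lower and 21.7% higher. In BMDM 0 of 88 passed the test (edgeR), where only 0.0685% of all 13139 genes tested did. The V-ATPase, the proton pump that acidifies the lysosome, had 11 of 18 subunits lower in skin, or 6 with library totals alone. Atp6v1b2 went from 573 ± 12.5 to 459.6 ± 16.6 CPM (SD, n = 6 each; -0.32, SE 0.04, adjusted p = 1.22e-05) and Atp6v1c1 from 253 ± 14.5 to 193 ± 14.3 CPM (-0.39). The other lysosomal hydrolases and activators had 10 of 25 lower. They included the largest fall of the pathway, that of the phospholipase Pla2g15 from 144 ± 17.7 to 85.9 ± 4.92 CPM (-0.75, SE 0.07, adjusted p = 9.32e-08). Hyal1, a hyaluronidase, went from 115 ± 12.7 to 77.9 ± 5.65 CPM (-0.56).

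Other lysosomal membrane proteins had 7 of 15 lower, led by Litaf, an adaptor of endosomal sorting, from 809 ± 43.6 to 606 ± 21.3 CPM (SD, n = 6 each; -0.42), and by the cystine exporter Ctns, from 40.0 ± 4.81 to 28.8 ± 2.13 CPM (-0.47). Of the enzymes and receptors that send hydrolases to the lysosome, 1 of 9 was lower, a share close to the 13.2% of all genes. This was Nagpa, which uncovers the mannose 6-phosphate tag (-0.23, edgeR adjusted p = 0.019), and the tag's receptor Igf2r was at 251 ± 16.5 and 267 ± 5.79 CPM (0.09, adjusted p = 0.178). By library totals alone 0 of these 9 were lower and 2 higher, and their median turned from -0.08 to 0.01. Among 6 cathepsin inhibitors tested, Cstb (-0.22) and Cst3 (-0.20) were lower and Cst6 was higher, from 2.02 ± 0.487 to 3.87 ± 1.39 CPM (0.93). By that scaling Cst6 was the 1 call left, and their median turned from -0.06 to 0.02. Of 17 genes of the mTORC1 and folliculin control of TFEB, 7 were lower and 2 higher, or 6 and 2 with library totals alone. Folliculin (Flcn) went from 139 ± 8.41 to 100.1 ± 7.51 CPM (-0.47, SE 0.06, adjusted p = 1.80e-06) and Rragc, a Rag GTPase, from 232 ± 8.39 to 179.5 ± 9.02 CPM (-0.37). The TFEB relative Mitf (0.33) and the kinase gene Mtor (0.28) were the 2 that were higher.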

How the data were processed

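The deposited tables, 1 for each cell source, hold raw read counts of RefSeq transcripts. According to the submitters' processing notes, the authors used FastQC 0.12.1, cutadapt 4.4, HISAT2 2.2.1 and featureCounts on build mm10 (GRCm38). How strand and shared reads were handled is not stated in the labels or notes, and the labels' extraction protocol names adipocytes, unlike the sample labels. A gene's most abundant transcript (by CPM over all libraries of the table) stood for the gene. For each source, 117 rows had no match in RefSeq or GENCODE, with 0.514% of BMDM and 0.187% of skin counts. Gaa and Tfe3 were represented by different transcripts in the tables.

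Tests used edgeR 4.0.16 in R 4.3.3 (TMM, filterByExpr with a minimum count of 10 and total of 15, robust quasi-likelihood F test, Benjamini-Hochberg adjustment over all genes tested, threshold 0.05). The BMDM fit held batch and genotype, the skin fit genotype, and the interaction was fitted over all 18 libraries. The SE is the log2 fold change divided by the square root of F. Lengths came from GENCODE. The procedure was tested on simulated data that held no batch effect. In the joint fit these data had the same spread per gene in both sources, so unequal spread was not covered.

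Other settings tried were RLE size factors, no filter, a stricter filter (1 CPM), transcripts summed, DESeq2 1.42.0, a block for the replicate number, a fit without batch, the B1 libraries alone, removal of length trends and leaving out each library. Library totals alone were added after seeing that TMM factors differed between skin genotypes. Same-numbered BMDM libraries deviated together (correlations of 0.2, 0.115 and 0.185 after removing group means). Batch was not removed in this check, and same-numbered libraries of both genotypes share a batch label. The check therefore cannot tell pairs by number from an effect of batch. The main BMDM and interaction fits hold the labelled batch and not the pairs; fits with the replicate number as a block stand beside them, that of the interaction added after this check. Same-numbered skin libraries did not deviate together (-0.045 to 0.09).

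Members and gene lists were chosen with earlier results of these data known. Library values were given for the 2 members of each role with the smallest skin p and the 2 with the smallest BMDM p, and pathway genes named were the 2 of each list with the smallest skin adjusted p. Gaa and Man2b1 in BMDM, Cst3, Mitf, Mtor and Adipoq were named after their values were seen.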

Additional observations from a re-analysis of the deposited data

Results flagged for a closer look

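In 4 of 76 groups of 6 skin libraries, 1 value lay far from the others by Dixon's criterion, which chance meets in about 1 in 20 groups. Ctsb was at 6689 CPM in T166A replicate 2, against 7195 to 7497 CPM in the other 5. Smpd1 was at 11.3 CPM in the same library, against 12.7 to 13.5 CPM. Idua was at 41.9 CPM in T166A replicate 4, against 47.0 to 49.7 CPM. Scarb2 was at 110.5 CPM in WT replicate 2, against 128 to 136 CPM.

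The genotype effect differed between skin and BMDM, by the edgeR interaction test, for Sgsh (-0.66, adjusted p = 0.0248), Ctsc (-0.45, 0.0291), Gla (-0.32, 0.0338), Ids (-0.41, 0.0344), Npc1 (-0.55, 0.036) and Neu1 (-0.32, 0.0444). None of the 6 kept its call in all 18 fits that left out 1 library. That test assumed the same spread per gene for both sources, although BMDM libraries varied more than skin libraries.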

How the results depend on the processing

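The number of members lower in skin was 25 to 28 under RLE size factors, other filters, summed transcripts, DESeq2, the block and the length correction, with 0 higher, and 21 to 27 when 1 library was left out. With library totals alone it was 16 calls (15 lower and 1 higher), and Gusb (0.038), Ids (0.038), Arsa (0.058), Lipa (0.067), Scarb2 (0.020) and Tfe3 (0.0088) changed sign, none past the threshold. Leaving out libraries also moved Lipa in skin over -0.053 to 0.010. Of 760 skin values of single members under the alternatives, 699 kept their direction and side of the threshold.

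In BMDM 0 members were called under each alternative except DESeq2, which called 1. Over all genes, where the main count was 9, no filter gave 105, transcripts summed 0, DESeq2 400, length trends removed 18, no batch term 0 and batch B1 alone 21, and leaving out 1 library gave 0 (4 of 6 libraries) to 18. Values of named members near 0 changed sign: with library totals alone Ctsb (0.014), Neu1 (0.0022), Cd68 (0.0065) and Tfe3 (0.0035); with no filter Tpp1 (-0.0037); with length trends removed Ctsz (0.048), Tpp1 (-0.032), Neu1 (0.025), Lamp1 (0.018) and Cd68 (0.16); with no batch term Cd68 (0.0086); in batch B1 alone Ctsb (0.042), Neu1 (0.054), Psap (0.049), Cd68 (0.11) and Tfe3 (0.12). Leaving out libraries moved Ctsb over -0.078 to 0.043, Cd68 over -0.16 to 0.11, Tfe3 over -0.15 to 0.12, Tpp1 over -0.12 to 0.17, Gaa over -0.15 to 0.44, Man2b1 over -0.085 to 0.43, Neu1 over -0.088 to 0.055 and Psap over -0.20 to 0.050. Over all 38 members, 79 of 608 BMDM values changed sign, with no adjusted p under 0.641.

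In the interaction the count of members called was 3 with no filter and 1 to 11 when 1 library was left out. The replicate block gave 10 genes and 0 members in BMDM, and 4549 genes and 27 members lower in skin, where the pairing was not borne out, and in the interaction, blocked within BMDM, 3130 genes and 7 members, the same 6 and Idua (-0.41, adjusted p = 0.023). Of the members' calls it changed those of Ppt1 in skin (adjusted p = 0.0272) and Idua in the interaction, and no other. The causes of these changes were not tested.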
